A study of Mus musculus with 16 samples.

Results

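Genes of red cells and their precursors were followed, array by array, in hippocampal RNA of newborn and juvenile mice. The set holds 9 genes, the globins *Hba-a1*, *Hbb-b1*, *Hbb-b2*, *Hbb-bh1* and *Hbb-y*, the heme synthesis enzyme *Alas2*, the anion exchanger *Slc4a1*, the globin chaperone *Ahsp* and the carbonic anhydrase *Car1*. All probes that carry one of these symbols, or an older alias of the same gene, were taken, which gave 9 probes for 8 of the 9 genes, of 25697 probes and 17232 genes in the deposited table. *Car1* had no probe under its symbol, and *Ahsp* is listed under its older name *Eraf*.

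The RNA came from hippocampi of *Mef2c*-het mice, which carry 1 copy of a conventional exon 2-deleted allele of the transcription factor gene *Mef2c* on the C57BL/6J background, and of WT littermates. Each of the 4 groups, WT P1, *Mef2c*-het P1, WT P30 and *Mef2c*-het P30, held 4 arrays of separately numbered samples, where P1 and P30 are postnatal days 1 and 30, and the labels call the heterozygotes KO. The labels name no treatment. The sources used here do not say whether blood was rinsed from the vessels before dissection, and they give no litter, sex or beadchip for a sample.

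Red cells arise from precursors that build hemoglobin from alpha-like and beta-like globin chains and heme, then lose the nucleus, so that circulating reticulocytes still hold globin mRNA while mature red cells hold little RNA of any other kind. *Hbb-bh1* and *Hbb-y* are embryonic beta-like globins of yolk sac red cells and are replaced by adult beta globin during fetal life. Brain tissue makes no red cells, although neurons and glia are known to use many genes that red cells also use, heme synthesis and cytoskeletal genes among them.

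The promoters of *Hba-a1*, *Hbb-y*, *Alas2* and *Hbb-bt*, the gene to which the array's *Hbb-b1* probe is now assigned, are shown because red cell precursors use all 4 and because the results turn on these globins and on *Alas2*. Each run is the 250 bases before the start site, 5′ to 3′, from RefSeq on GRCm38.p6, with 4 short motifs in capitals on either strand: GATAA or TTATC (bound by GATA factors), CACCC or GGGTG (bound by Krüppel-like factors), CCAAT or ATTGG, and TATAA or TTATA. The windows are chr11:32283422-32283671 on the plus strand for *Hba-a1*, chr7:103813924-103814173 on the minus strand for *Hbb-bt*, chr7:103853208-103853457 on the minus strand for *Hbb-y* and chrX:150547167-150547416 on the plus strand for *Alas2*.
Hba-a1: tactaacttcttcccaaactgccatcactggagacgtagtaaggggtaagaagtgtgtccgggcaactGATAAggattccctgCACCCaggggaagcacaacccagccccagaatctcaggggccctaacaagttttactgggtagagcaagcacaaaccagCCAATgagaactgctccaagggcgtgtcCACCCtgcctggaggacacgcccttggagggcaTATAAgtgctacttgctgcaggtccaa
Hbb-bt: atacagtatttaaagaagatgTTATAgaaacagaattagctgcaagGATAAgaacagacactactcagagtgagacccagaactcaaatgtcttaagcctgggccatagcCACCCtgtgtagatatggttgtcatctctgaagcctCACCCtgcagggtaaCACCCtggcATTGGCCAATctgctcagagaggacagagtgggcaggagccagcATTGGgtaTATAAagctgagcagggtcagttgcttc
Hbb-y: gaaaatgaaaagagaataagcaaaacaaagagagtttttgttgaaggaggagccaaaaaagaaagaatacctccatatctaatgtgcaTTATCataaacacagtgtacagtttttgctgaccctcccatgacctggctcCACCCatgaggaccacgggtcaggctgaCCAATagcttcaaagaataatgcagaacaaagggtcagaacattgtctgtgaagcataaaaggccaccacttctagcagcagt
Alas2: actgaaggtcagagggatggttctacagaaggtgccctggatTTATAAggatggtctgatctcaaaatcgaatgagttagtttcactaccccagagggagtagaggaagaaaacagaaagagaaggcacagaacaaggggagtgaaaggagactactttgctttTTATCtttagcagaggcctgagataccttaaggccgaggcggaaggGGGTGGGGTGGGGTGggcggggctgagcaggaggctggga
All 4 windows held a GATAA motif on either strand, which 22.6% of 32851 promoter windows of the same length did, and a CACCC motif, which 52.0% did. CCAAT was in the 3 globin windows and not in that of *Alas2* (33.8% of all windows), and TATAA began 27 and 28 bases before the start in *Hba-a1* and *Hbb-bt* (22.8% of all windows held it anywhere). In *Alas2* the letters of a TTATA and a TATAA overlap. *Hba-a2*, the neighbouring copy of *Hba-a1*, had the same letter at 297 of 297 promoter bases compared, while *Hbb-bs* matched *Hbb-bt* at 168 of 299 bases without gaps. C57BL/6 mice carry the *Hbb-bs* and *Hbb-bt* genes at the adult beta globin locus, and *Hbb-b1* and *Hbb-b2* are names of the other common haplotype. The transcript record of the *Hbb-b1* probe is assigned to *Hbb-bt* in the current annotation, and which of the present genes each alpha or beta globin probe binds was not tested, because the deposited table gives no probe letters.

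The adult alpha globin, 1 adult beta globin and *Alas2* were measured on every array, and the embryonic globins on none. A probe was counted as above background where its detection p against the array's negative control beads was under 0.05. *Hba-a1*, *Hbb-b1* and *Alas2* passed on 16 of 16 arrays, *Slc4a1* on 10 and *Ahsp* on 9. *Hbb-b2* passed on 1 array of 16, a WT P1 array at a detection p of 0.028. *Hbb-bh1* and both probes of *Hbb-y* passed on 0 of 16 arrays, with intensities between 106 and 168 and no detection p below 0.098. Transcripts of embryonic globins were thus not detectable above background at P1 or P30 on these probes, and their order between groups is not read here. *Hba-a1* was at 8113 to 19250 units of intensity per array, within a table that reached 45402.

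**Figure D1:**
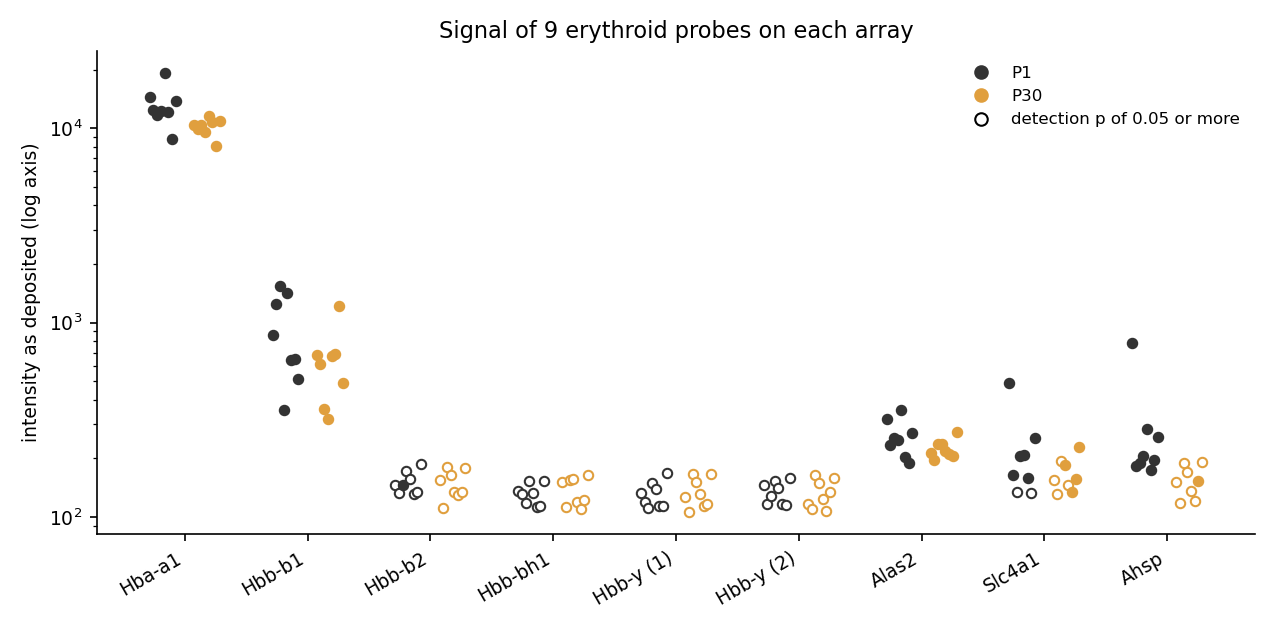
Intensity as deposited (log axis) of the 9 erythroid probes on each of 16 arrays, dark for P1 and orange for P30, with open symbols where the detection p was 0.05 or more. The signals of *Hbb-bh1* and both *Hbb-y* probes are open on all 16 arrays, while those of *Ahsp* are filled on 8 of 8 P1 arrays and on 1 of 8 P30 arrays; levels of different probes are not comparable.

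The whole series sets limits on these values. Arrays of 1 age correlated at 0.983 to 0.997 over all probes, between 12638 and 14150 probes passed the detection threshold per array, and the median number of beads behind a probe was 36 to 39. The 2 *Mef2c* probes above background did not separate the genotypes at either age (adjusted p of 0.976 or more by limma), and where they lie relative to the deleted exon is not known, so they check no label. Within each age the arrays fell into a larger cluster and a smaller one, found here from the correlation of all probes: the smaller clusters held WT replicate 8 and *Mef2c*-het replicate 8 at P1, and WT replicates 6 and 7 and *Mef2c*-het replicate 7 at P30. These 5 arrays are the last 5 of the table, and the 5th percentile of their signal was 140 to 161 units, against 106 to 131 on the other 11. Read from *Xist* and Y-linked genes, all 8 P30 arrays were of males, and 5 of the 8 P1 arrays were of females (3 WT and 2 *Mef2c*-het), so that age and sex partly coincide. Sex and cluster partly coincide as well: the P1 arrays of males were both replicate 8 arrays, which form the smaller cluster, and *Mef2c*-het replicate 2. With all P30 arrays male, a sex covariate rests on the P1 arrays alone.

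The first question was whether transcripts of these red cell genes were lower in the hippocampus at P30 than at P1. Which cells of the tissue held the transcripts was not tested. In WT hippocampus 3 of the 5 probes that could be tested were lower at P30, those of *Hba-a1*, *Alas2* and *Ahsp*, and none was higher. *Ahsp* passed the filter on dim probes through the P1 arrays alone, so that its direction was favoured by the filter, and the count is a description. That share is set against 31.7% of all 14777 probes called lower between these ages, 28.0% called higher and 59.7% called in either direction. In *Mef2c*-het hippocampus 0 of the 5 were called by limma (1 at an unadjusted p under 0.05), against 31.4% of all probes called lower, 26.9% called higher and 58.3% called in either direction. The 2 age comparisons set different arrays against each other but come from 1 fit with a common spread. A *Mef2c*-het call thus depends on WT arrays too: without WT P1 replicate 1, *Ahsp* was called in *Mef2c*-het (limma adjusted p = 2.42e-05). The difference between the age comparisons was called for 0 of 5 members (0.0% of 14777 probes, 438 at an unadjusted p under 0.05). The median change of the 5 members was, with *Ahsp* included, -0.46 in WT and -0.09 in *Mef2c*-het on the log2 scale, against -0.03 and -0.02 over all probes tested.

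*Hba-a1* encodes the adult alpha globin chain. Its log2 signals on WT arrays were 13.60, 13.66, 13.53 and 13.77 at P1 (replicates 1, 4, 5 and 8) and 13.11, 13.51, 13.21 and 13.28 at P30 (replicates 2, 3, 6 and 7). On *Mef2c*-het arrays they were 13.91, 13.59, 13.35 and 13.67 at P1 (replicates 1, 2, 4 and 8) and 13.46, 13.61, 12.93 and 13.36 at P30 (replicates 3, 5, 6 and 7). The WT ages did not overlap, with 13.53 as the lowest P1 value and 13.51 as the highest P30 value, and the *Mef2c*-het ages did. In WT the change was -0.36 ± 0.14 (SE; limma adjusted p = 0.031; exact permutation p = 0.0286, the smallest that 4 against 4 can give), which is 0.778 of the P1 signal. Groups did not overlap, with the P30 arrays lower, for 27.8% of all probes in WT. In *Mef2c*-het the change was -0.29 ± 0.14 with an adjusted p of 0.0789 by limma. The WT call was lost without WT P1 replicate 4 or 8 or WT P30 replicate 2, 6 or 7 (adjusted p of 0.0536 to 0.0889), with cyclic loess (-0.26, adjusted p = 0.126), a common median (adjusted p = 0.0751), no filter (adjusted p = 0.0503) or sex as a covariate (-0.42, adjusted p = 0.0625), and without the smaller clusters (-0.30, adjusted p = 0.199). The *Mef2c*-het value was called without *Mef2c*-het P1 replicate 4 (-0.39, adjusted p = 0.0266) or *Mef2c*-het P30 replicate 5 (-0.38, adjusted p = 0.0291).

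Over both genotypes together, a comparison added after these values were seen, 2 of 5 members were called lower at P30 (36.7% of all probes were lower, 31.8% higher and 68.5% either). They were *Hba-a1*, at -0.33 ± 0.10 (SE, 8 arrays per age, limma adjusted p = 0.00658), and *Ahsp*, whose direction was favoured by the filter. With the sex read from the arrays as a covariate the *Hba-a1* change was -0.37 with an adjusted p of 0.026, and without the arrays of the smaller clusters it was -0.29 with an adjusted p of 0.0554.

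*Hbb-b1* stands for the adult beta globin that pairs with alpha globin in hemoglobin. On WT arrays its log2 signals were 9.59, 10.27, 10.48 and 8.58 at P1 and 9.22, 9.60, 8.29 and 8.38 at P30, in the same order of replicates. On *Mef2c*-het arrays they were 10.13, 9.37, 9.61 and 8.77 at P1 and 9.42, 9.80, 10.23 and 8.80 at P30. At both ages the low values are those of the smaller clusters: 8.58 to 8.77 at P1, where the larger cluster held 9.37 to 10.48, and 8.29 to 8.80 at P30, where it held 9.22 to 10.23. The mean difference between the clusters was -1.23 at P1 and -1.17 at P30, and the deposited intensities separated in the same way, with at most 512 units on the smaller cluster and at least 645 on the larger at P1. A total of 1431 of 14777 probes (9.68%) were likewise lower on every array of the smaller clusters at both ages. *Hba-a1* was not among them, at 13.67 to 13.77 on the smaller cluster and 13.35 to 13.91 on the larger at P1.

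The age change of *Hbb-b1* was -0.86 ± 0.42 in WT (SE; limma adjusted p = 0.09) and 0.09 ± 0.42 in *Mef2c*-het (adjusted p = 0.874), and the ages overlapped in both genotypes. In WT the change was called with the clusters as a block (-0.57, adjusted p = 0.0165), without their arrays (-0.71, adjusted p = 0.0386), and without WT P1 replicate 8 (-1.25, adjusted p = 0.0114) or WT P30 replicate 3 (-1.10, adjusted p = 0.0429). With sex as a covariate it was -0.02 (adjusted p = 0.971). Among WT P1 arrays only replicate 8, of the smaller cluster, was of a male, so this covariate is not separate from the cluster. The value of this probe thus depends on which arrays and covariates enter the fit, and the part of the clusters or of sex in it was not tested.

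**Figure D2:**
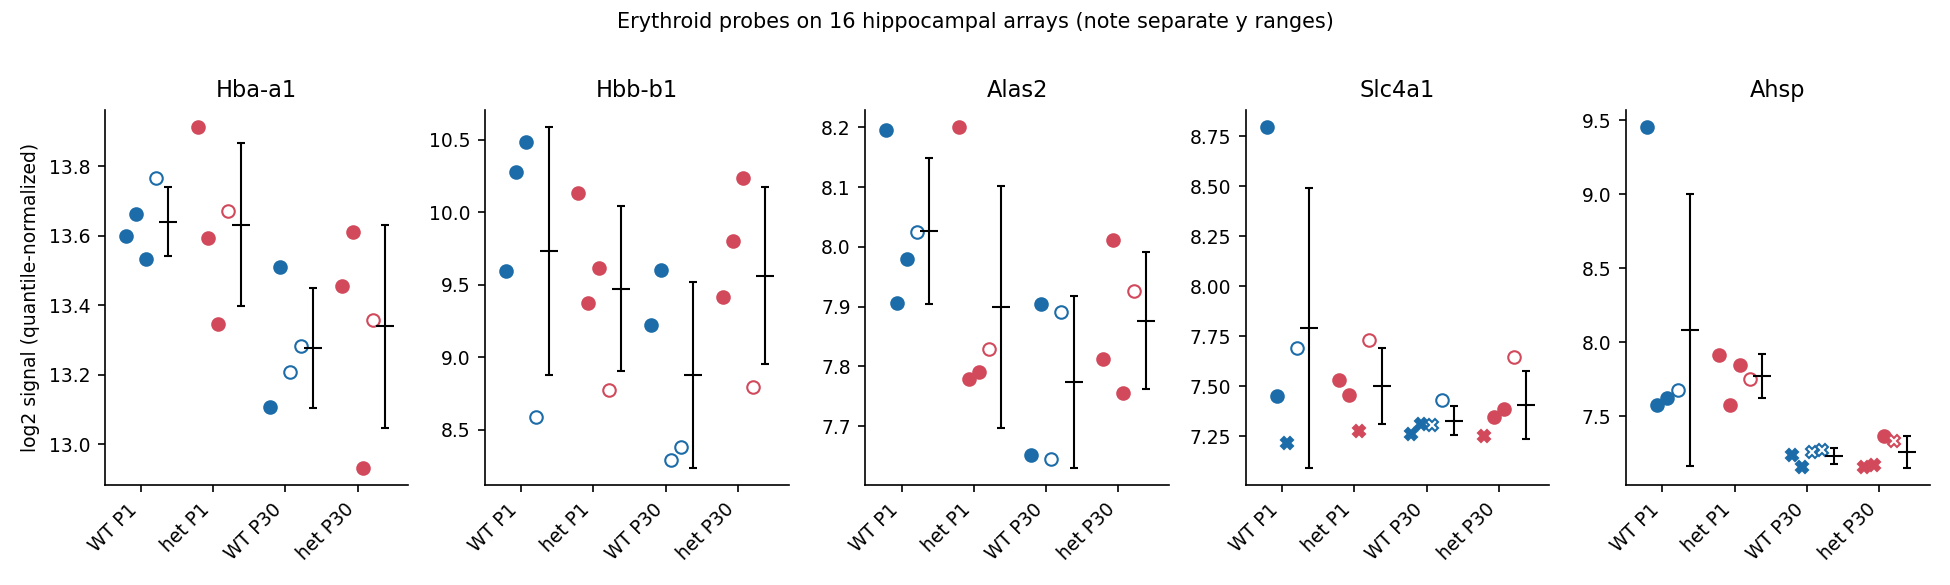
Quantile-normalized log2 signal of the 5 tested erythroid probes on each of 16 arrays (blue WT, red *Mef2c*-het), with black bars for the group mean and SD over 4 arrays; open symbols mark the 5 arrays of the smaller clusters and crosses a detection p of 0.05 or more. *Hbb-b1* is lowest on the open symbols of each age, and *Slc4a1* and *Ahsp* stand high on WT P1 replicate 1, at 8.80 and 9.46.

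*Alas2* encodes the red cell form of the first and rate-limiting enzyme of heme synthesis. On WT arrays its log2 signals were 8.20, 7.91, 7.98 and 8.02 at P1 and 7.65, 7.90, 7.65 and 7.89 at P30. On *Mef2c*-het arrays they were 8.20, 7.78, 7.79 and 7.83 at P1 and 7.81, 8.01, 7.76 and 7.93 at P30. The WT ages did not overlap, by a narrow margin of 7.91 against 7.90, and the *Mef2c*-het ages did. The change was -0.25 ± 0.10 in WT (SE; limma adjusted p = 0.0399; exact permutation p = 0.0286) and -0.02 ± 0.10 in *Mef2c*-het (adjusted p = 0.866). The WT call was lost without WT P1 replicate 1, 5 or 8 or WT P30 replicate 2 or 6 (adjusted p of 0.0523 to 0.127) with cyclic loess (adjusted p = 0.077), no filter (adjusted p = 0.0587) or sex as a covariate (-0.17, adjusted p = 0.295), and without the smaller clusters (-0.26, adjusted p = 0.129).

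*Ahsp* encodes a chaperone that holds free alpha globin until it pairs with beta globin, and is used by red cell precursors. On WT arrays its log2 signals were 9.46, 7.57, 7.62 and 7.68 at P1 and 7.24, 7.15, 7.26 and 7.27 at P30. On *Mef2c*-het arrays they were 7.91, 7.58, 7.85 and 7.75 at P1 and 7.16, 7.17, 7.36 and 7.33 at P30. All 8 P1 arrays lay above all 8 P30 arrays, which 22.1% of all probes did, and WT P1 replicate 1 stood well above the other 7. The probe was above background on 8 of 8 arrays at P1 and on 1 of 8 at P30, that of *Mef2c*-het replicate 6. In bulk RNA, fewer cells of a type and less RNA per cell cannot be told apart.

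Because *Ahsp* was not above background on any WT P30 array, its fold there is a bound: the WT signal was at least 1.69-fold higher at P1 than at P30, and at least 1.23-fold higher without WT P1 replicate 1. The fitted change was -0.85 ± 0.29 in WT (SE; limma adjusted p = 0.0188; exact permutation p = 0.0286) and -0.52 ± 0.29 in *Mef2c*-het (adjusted p = 0.144; exact permutation p = 0.0286, with 28.2% of all probes lower without overlap). Since *Ahsp* passed the filter through P1 alone, the direction of both changes was favoured by the filter, and their p-values are descriptions. Without WT P1 replicate 1 both changes were called, at -0.39 (adjusted p = 6.34e-04) in WT and -0.51 (adjusted p = 2.42e-05) in *Mef2c*-het. After a normexp background correction, which widens differences near background, the changes were -1.99 and -1.49, both called. With sex as a covariate neither was (-0.59, adjusted p = 0.203, and -0.34, adjusted p = 0.405). In the 8 arrays of 1 genotype alone the WT value was -0.85 and not called (adjusted p = 0.0657), and the *Mef2c*-het value was -0.52 and called (adjusted p = 5.53e-04).

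*Slc4a1* encodes band 3, the chloride and bicarbonate exchanger of the red cell membrane. On WT arrays its log2 signals were 8.80, 7.45, 7.22 and 7.69 at P1 and 7.26, 7.31, 7.31 and 7.43 at P30. On *Mef2c*-het arrays they were 7.53, 7.46, 7.28 and 7.73 at P1 and 7.25, 7.35, 7.39 and 7.65 at P30. Apart from WT P1 replicate 1 the ages overlapped in both genotypes. The change was -0.46 ± 0.23 in WT (SE; limma adjusted p = 0.102) and -0.09 ± 0.23 in *Mef2c*-het (adjusted p = 0.763); the WT value was -0.12 without WT P1 replicate 1, -0.65 and called without WT P1 replicate 5 (adjusted p = 0.0222), and -1.04 after normexp (adjusted p = 0.105).

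**Figure D3:**
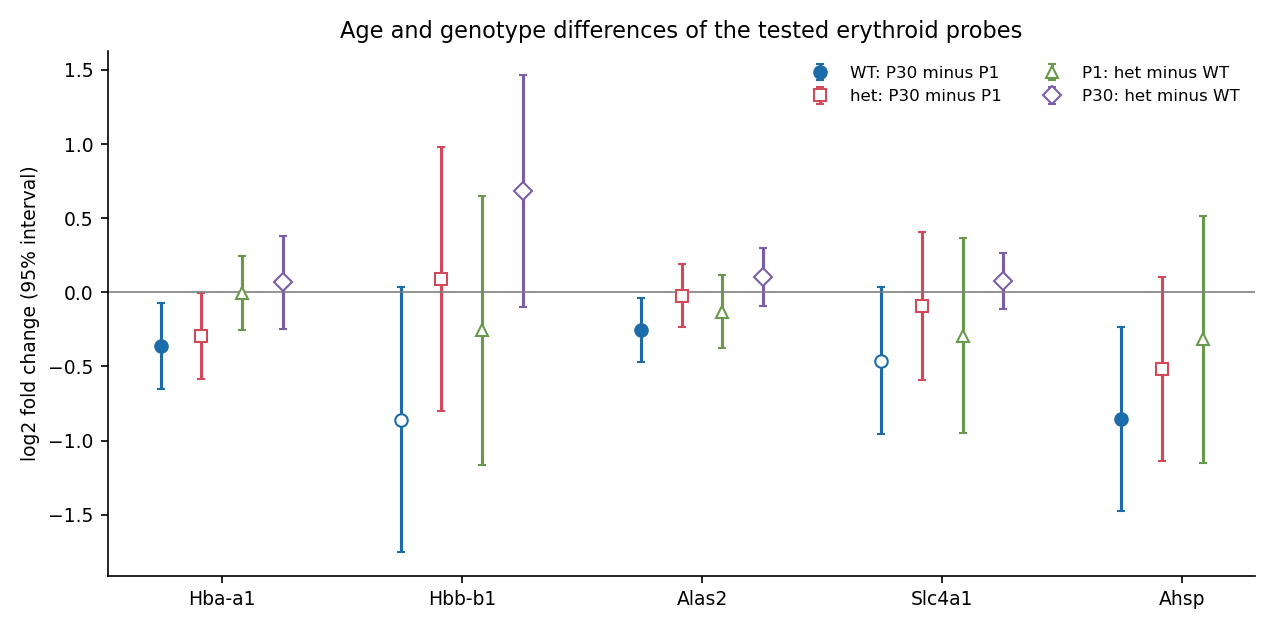
Log2 fold change with 95% confidence interval of 5 erythroid probes for age in each genotype (blue WT, red *Mef2c*-het) and for genotype at each age (green P1, violet P30), with filled symbols where the limma adjusted p was under 0.05. The filled symbols are the WT age changes of *Hba-a1*, *Alas2* and *Ahsp*. *Ahsp* passed the filter of the age comparisons through P1 alone and was not tested between genotypes at P30.

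The change of *Alas2*, *Slc4a1* and *Ahsp* with age was also set against that of adult globin within each array. With the mean of *Hba-a1* and *Hbb-b1* as reference, 0 of 6 differences passed Benjamini-Hochberg adjustment. The nearest was *Ahsp* in *Mef2c*-het, which fell by 0.41 more than globin (exact permutation p = 0.114, two-sided; adjusted p = 0.686). After normexp it fell by 1.39 more, without overlap (exact permutation p = 0.0286; adjusted p = 0.171), and with *Hba-a1* alone as reference by 0.22 more (exact permutation p = 0.343). In WT *Alas2* fell less than globin, by a difference of 0.36 (exact permutation p = 0.257) or, with *Hba-a1* alone, of 0.11 (exact permutation p = 0.343). After normexp the *Alas2* difference was 0.19 (exact permutation p = 0.6). For *Slc4a1* in WT the difference from globin was 0.15 and, after normexp, -0.31 (exact permutation p = 0.771 for each). For *Ahsp* in WT no difference from globin is read, since its P30 signal is only a bound. In *Mef2c*-het *Ahsp* was above background on 1 of 4 P30 arrays, so its values there are limited in much the same way. A p that misses the threshold here does not show that the members changed alike, and the reference holds the *Hbb-b1* probe.

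The second question was whether *Mef2c*-het and WT hippocampi differed in transcripts of these red cell genes. At P1, 0 of the 5 tested members differed (0.0% of 13566 probes were called by limma, 220 at an unadjusted p under 0.05, none of them a member). At P30, 0 of the 4 tested members differed (0.00746% of 13413 probes were called, which is 1 probe, and 316 were at an unadjusted p under 0.05, none of them a member). *Hba-a1* differed between *Mef2c*-het and WT by -0.0034 at P1 (95% confidence interval -0.25 to 0.25) and by 0.07 at P30 (-0.25 to 0.38), on the log2 scale. *Alas2* differed by -0.13 at P1 (-0.38 to 0.11) and by 0.10 at P30 (-0.09 to 0.30). The widest intervals were those of *Hbb-b1*, at -0.26 (-1.16 to 0.65) at P1 and 0.69 (-0.10 to 1.47) at P30.

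The P30 difference of *Hbb-b1* lay above that of 99.96% of all probes tested, yet its groups overlapped (8.29 to 9.60 in WT and 8.80 to 10.23 in *Mef2c*-het) and its adjusted p was 0.976. The smaller cluster holds 2 of the 4 WT arrays and 1 of the 4 *Mef2c*-het arrays at P30. With the clusters as a block the difference was 0.43, and without their arrays it was 0.41, both with an adjusted p of 0.985 or more. At P1 *Slc4a1* and *Ahsp* were lower in *Mef2c*-het by 0.29 (-0.95 to 0.36) and 0.32 (-1.15 to 0.51), and both differences changed sign without WT P1 replicate 1, to 0.05 and 0.15.

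The SD of *Hbb-b1* over the 4 arrays of a group was 0.57 to 0.86 on the log2 scale and lay above that of 98.7% to 99.8% of all probes in each group. The SD of *Hba-a1* was 0.10 to 0.29 and lay above that of 38.4% to 93.1% of probes. With group means removed, over 16 arrays, *Hba-a1* correlated with *Alas2* at 0.67, and *Slc4a1* with *Ahsp* at 0.90, a value that WT P1 replicate 1 carries as the highest array of both. These are descriptions over arrays that share clusters and normalization.

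Among P30 arrays alone *Alas2* was higher where *Hba-a1* was higher, with Pearson r = 0.74 (exact permutation p = 0.0381, n = 8) and Spearman rho = 0.79 (exact permutation p = 0.0279), and r was 0.74 without the 2 arrays farthest from the median of *Hba-a1*. Without normalization between arrays r was 0.31 (exact permutation p = 0.432). The adjusted p over the 6 relations computed was 0.229 for r and 0.168 for rho, so the relation did not pass. Among P1 arrays r was 0.58 (exact permutation p = 0.126, n = 8; adjusted p = 0.377) with rho = 0.60 (exact permutation p = 0.132; adjusted p = 0.397), and r was -0.02 without the 2 farthest arrays, so that it rests on them. *Hbb-b1* splits by cluster, so its relations over all 8 arrays of an age, which are among the 6 adjusted over, are not given. In the larger P1 cluster of 6 arrays its r was 0.33 with *Hba-a1* (rho = 0.09; exact permutation p = 0.556 and 0.919) and 0.28 with *Alas2* (rho = 0.37; exact permutation p = 0.51 and 0.497), and the P30 clusters hold fewer than 6 arrays each.

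**Figure D4:**
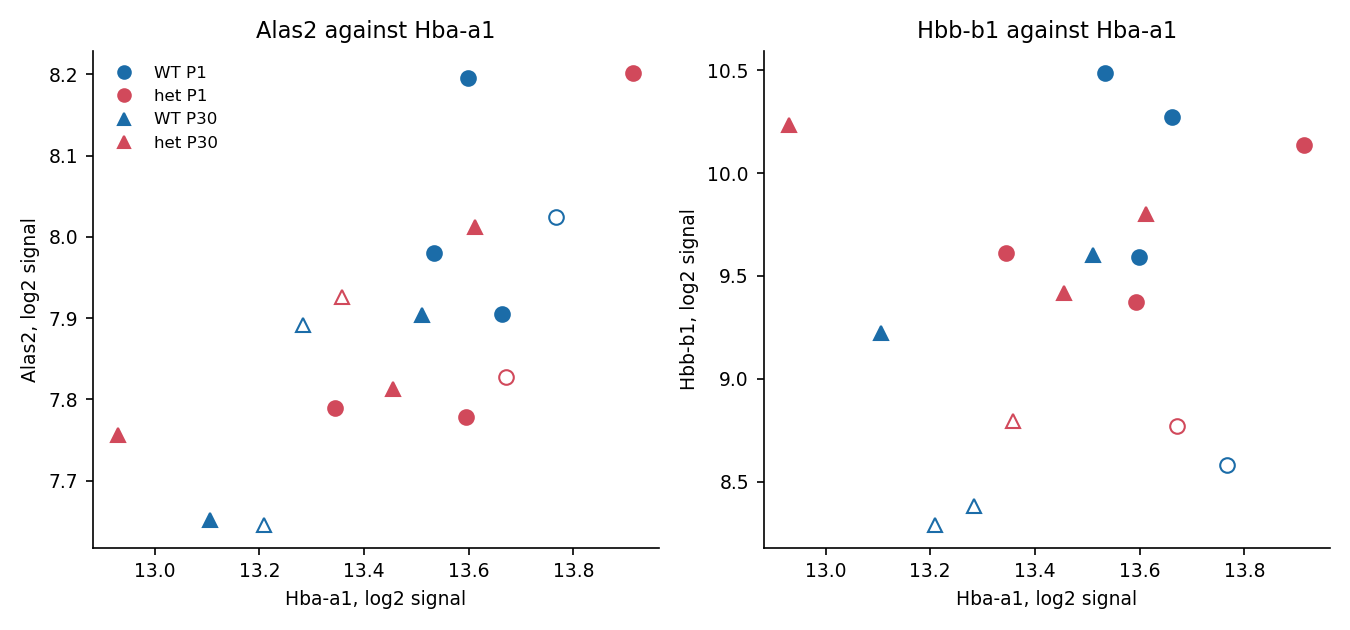
Log2 signal of *Alas2* (left) and *Hbb-b1* (right) against that of *Hba-a1* on each of 16 arrays, as circles at P1 and triangles at P30, blue for WT and red for *Mef2c*-het, with open symbols for the 5 arrays of the smaller clusters. *Alas2* and *Hba-a1* correlated at 0.67 over 16 arrays with group means removed. Within 1 age their relation did not pass (exact permutation adjusted p of r = 0.377 at P1 and 0.229 at P30). At each age the *Hbb-b1* values of the smaller cluster (at most 8.77 at P1 and 8.80 at P30) lie below all others of that age.

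The 8 genes whose probes followed the mean of *Hba-a1* and *Hbb-b1* most closely over 16 arrays, with group means removed, were *Elavl1* (r = 0.95), *Map1lc3b* (0.93), *Cd93* (0.92), *Gnas* (0.92), *3732413I11Rik* (0.91), *Tmem109* (0.91), *Tmem230* (0.91) and *Tjp1* (0.90), of 10888 genes compared. All 8 are among the probes lower on every array of the smaller clusters at both ages, as *Hbb-b1* is. For *Hba-a1* alone, compared after those values were seen, the closest were *Foxn3* (r = 0.88), *Rabl2* (0.85), *Arglu1* (0.80) and *Slc7a5* (0.80), none of them such a probe.

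WT P1 replicate 1, the array with the highest *Ahsp* and *Slc4a1*, was also the highest P1 array for the mean of the choroid plexus list, genes of the epithelium that makes cerebrospinal fluid, and for each of its tested genes other than *Otx2* (8.71 there and 8.72 on *Mef2c*-het P1 replicate 1). *Clic6* was at 11.15 there and at 7.68 to 10.18 on the other 7 P1 arrays, *Folr1* at 9.36 against 7.15 to 8.97, and *Aqp1*, a water channel of both choroid plexus and red cells, at 10.43 against 7.32 to 9.65. The mean of the choroid plexus list lay 1.19 above the mean of the P1 arrays on this array, 0.72 above it on *Mef2c*-het P1 replicate 4 and 0.58 above it on *Mef2c*-het P1 replicate 1. These 3 arrays also held the 3 highest *Ahsp* values of the P1 arrays, at 9.46, 7.85 and 7.91. *Slc4a1* was 7.28 and 7.53 on the *Mef2c*-het arrays of the 3, within its range of 7.22 to 7.73 on the 7 arrays other than WT P1 replicate 1. Among P30 arrays the list mean was highest on WT P30 replicate 2, at 1.05 above the mean of that age. On that array *Ahsp* was at 7.24 and *Slc4a1* at 7.26, neither above background (detection p of 0.0952 and 0.0727). The part of choroid plexus tissue in the *Slc4a1* and *Ahsp* values was not tested.

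**Figure D5:**
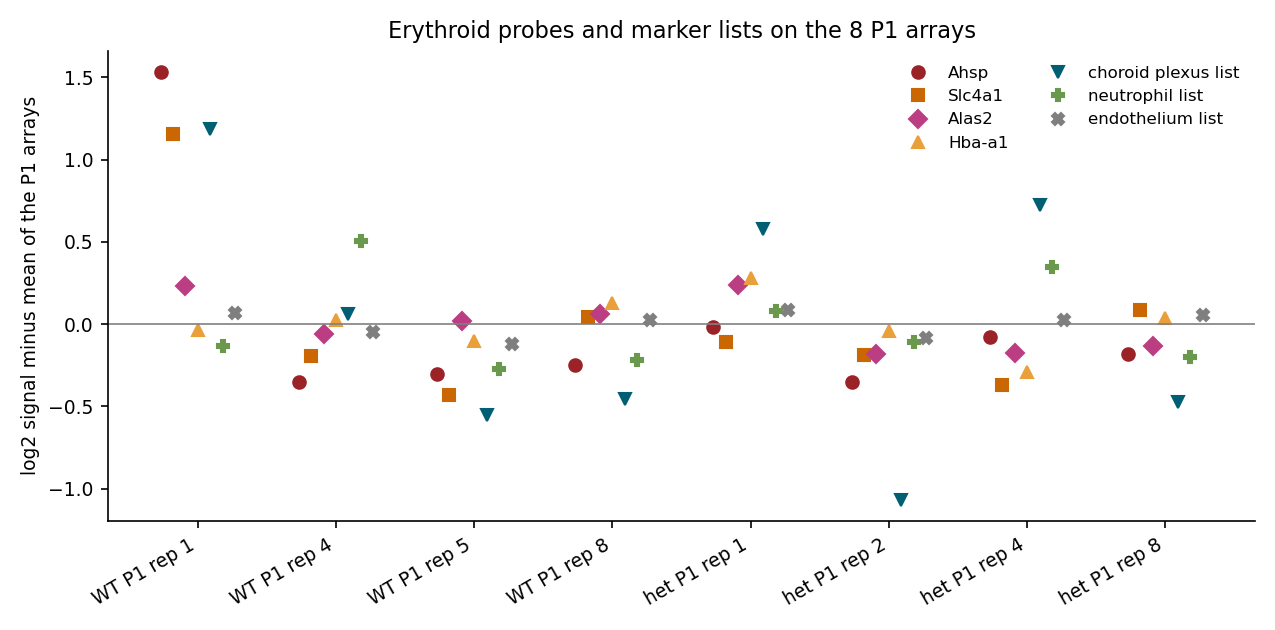
Log2 signal minus the mean of the 8 P1 arrays for 4 erythroid probes and for the mean of the choroid plexus, neutrophil and endothelium lists, by array. *Ahsp*, *Slc4a1* and the choroid plexus list are highest on WT P1 replicate 1, where the list lies 1.19 above its P1 mean, and *Mef2c*-het P1 replicates 4 and 1, the next highest for this list (0.72 and 0.58), hold the next highest values of *Ahsp* (7.85 and 7.91) but not of *Slc4a1* (7.28 and 7.53).

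Other genes of the red cell were examined as lists, whose counts by age are read beside the 28.0% of all probes called higher and 31.7% called lower in WT, and 26.9% and 31.4% in *Mef2c*-het. Of the other globins, *Ngb* and *Cygb*, the globins of neurons and of fibroblasts and other cells, were above the filter, while *Hba-x* and *Hbq1a* had a probe that was not; *Cygb* rose with age by 1.18 ± 0.13 in WT and 0.95 ± 0.13 in *Mef2c*-het (SE; limma adjusted p = 5.96e-07 and 7.08e-06), and *Ngb* by 0.19 ± 0.06 in WT (adjusted p = 0.0117). Of 11 tested heme synthesis genes, 4 were higher and 2 lower at P30 in WT, and 5 and 2 in *Mef2c*-het. The mitochondrial iron importer *Slc25a37* rose by 0.73 ± 0.06 in WT and 0.63 ± 0.06 in *Mef2c*-het, and *Alad*, the second enzyme of the pathway, fell by 0.84 and 0.65 (adjusted p of 2.6e-07 or less for each). The list median was 0.10 in WT and 0.11 in *Mef2c*-het, and these genes are used in many cell types.

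Among erythroid transcription factors, *Gata1*, the master regulator of the lineage, was above background on 0 of 16 arrays, as was *Myb*. *Klf1*, which activates beta globin, was above background on 5 of 8 arrays at P1 and 1 of 8 at P30 (age change not called; limma adjusted p = 0.214 in WT and 0.724 in *Mef2c*-het), and *Tal1* on 5 and 0. *Tal1* was called lower at P30 in *Mef2c*-het (adjusted p = 0.0211) and not in WT (adjusted p = 0.0878), with a signal at least 1.01-fold higher at P1 in *Mef2c*-het. Both passed the filter through P1 alone. In all, 2 of 7 tested factors rose and 2 fell in WT. *Zfpm1*, the cofactor of GATA1, rose by 1.51 ± 0.13 and *Zbtb7a* by 1.24 ± 0.14, and *Ldb1* fell by 1.01 and *Bcl11a*, which silences embryonic globin and is also a neuronal factor, fell by 0.83 in WT.

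Of 18 membrane and cytoskeleton genes, 6 were above background on no array, among them the red cell antigens *Rhd* and *Kel* and the band 4.2 gene *Epb42*, and 10 were tested with age. In WT 5 rose and 2 fell. The 5 included *Sptb*, a spectrin that neurons also use, which rose by 4.19 ± 0.09 (limma adjusted p = 2.12e-15), and *Tmod1* and *Ank1*, and those that fell were *Gypc*, encoding glycophorin C, by 0.35, and *Epb41*, encoding protein 4.1. *Epb41* was above background on 8 of 8 arrays at P1 and 0 of 8 at P30, and its signal was at least 1.48-fold higher at P1 in WT. Of the 10, 3 passed the filter through P1 alone, *Epb41* among them, and 2 through P30 alone. The direction of these genes was favoured by the filter, and the counts are descriptions. *Rhag*, encoding a partner of the Rh proteins in the red cell membrane, changed by -0.04 ± 0.08 in WT and 0.07 ± 0.08 in *Mef2c*-het (adjusted p = 0.721 and 0.479). It was above background on only 2 of 8 arrays at P1 and 4 of 8 at P30, so these values near background do not show a lack of change. Of 9 tested cytosol and maturation genes, 3 rose and 2 fell in WT, with *Car2*, also an oligodendrocyte gene, up by 2.22 ± 0.15 and *Prdx2* down by 0.89. The red cell genes *Hemgn*, *Trim10*, *Trim58* and *Pklr* were above background on no array.

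The transferrin receptor gene *Tfrc*, through which erythroid and other cells take up iron, fell by 0.29 ± 0.07 in WT and 0.37 ± 0.07 in *Mef2c*-het, with limma adjusted p of 0.00186 or less. The erythropoietin receptor gene *Epor*, above background on 0 of 8 arrays at P1 and 8 of 8 at P30, was at least 1.20-fold higher at P30 in WT and 1.17-fold in *Mef2c*-het (limma adjusted p = 4.10e-04 and 0.00115). *Epor* passed the filter through P30 alone, so that its direction was favoured by the filter. In all 2 of 4 tested genes of erythropoietin and iron uptake, *Epor* included, rose and 1 fell in WT, and the count is a description. Of 6 tested genes of hemoglobin and iron clearance, 1 of which passed the filter through P1 alone, 1 rose and 2 fell in WT. The iron exporter *Slc40a1* fell by 0.81 ± 0.11 and the ferritin gene *Fth1* rose by 0.30, while *Hmox1*, which degrades heme, changed by -0.07 ± 0.06 (limma adjusted p = 0.317). *Hmox1* was above background on 4 of 8 arrays at P1 and 2 of 8 at P30, so its value is also one near background. Between genotypes, 0 genes of these lists were called at either age.

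Markers of other blood and vessel cells were set beside the age change of *Ahsp* and *Hba-a1*. Of 5 tested neutrophil genes, 3 of which passed the filter through P1 alone, 3 fell with age in WT and 4 in *Mef2c*-het (31.7% and 31.4% of all probes did), with *S100a8* changed by -1.13 ± 0.40 in WT and -1.49 ± 0.40 in *Mef2c*-het (SE; limma adjusted p = 0.0237 and 0.00462), and 4 of 14 were above background on no array (*Ngp*, *Mmp8*, *Retnlg* and *Cxcr2*). The mean of the neutrophil list was 7.78 to 8.56 in WT and 7.86 to 8.40 in *Mef2c*-het at P1. At P30 it was 7.23 to 7.40 and 7.24 to 7.37, and no P30 array reached a P1 array. For 3 of its 5 genes that direction was favoured by the filter, and the separation is a description. Of single probes, 22.1% were lower on every P30 array than on any P1 array. Of 7 tested platelet genes, 1 of which passed the filter through P30 alone, 2 fell and 1 rose in both genotypes. *Pf4* changed by -0.92 ± 0.22 in WT, and the list mean was 7.63 to 7.74 at P1 and 7.45 to 7.58 at P30. Of 3 tested lymphocyte genes, 1 of which passed the filter through P30 alone, 1 fell, *Lck* by 0.84 in WT. *Lck* was above background on 8 of 8 arrays at each age, *Cd79b* on 7 at P1 and 4 at P30, and *Cd3e* on 1 and 5. The part of lymphocytes in the *Lck* change was not tested. *Cd3d*, *Cd79a*, *Ms4a1* and *Nkg7* were above background on no array.

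Of 12 tested endothelial genes, 3 rose and 5 fell in WT, and the list mean was 8.94 to 9.13 in WT at P1 and 9.04 to 9.13 at P30. Of 6 tested choroid plexus genes 1 rose and 1 fell in WT, with the list mean at 8.48 to 10.21 at P1 and 7.85 to 9.34 at P30. Of 7 tested meningeal genes 1 rose and 3 fell, of 12 microglial genes 9 rose, and of 9 hippocampal neuron genes 5 rose and 3 fell, in WT. Through P1 alone, 2 choroid plexus genes, 1 meningeal gene and 1 neuronal gene passed the filter. Through P30 alone, 1 choroid plexus gene and 1 endothelial gene passed it. The direction of these genes was favoured by the filter, and the counts are descriptions. The part of these cells in the change of the red cell genes was not tested.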

How the data were processed

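Total hippocampal RNA of 16 mice was labelled and hybridised to MouseRef-8 v2 beadchips (Illumina), 1 array per sample. The deposited intensity of a probe is the mean fluorescence of its beads, not normalized between arrays, beside a standard error over beads in the same unit. The deposited detection p-value compares it with negative control beads of that array, and the deposited count of beads per probe was 20 to 55 for the members. The authors' notes name lumi and limma. Whether a local background was subtracted, and the software that wrote the table, are not given in the sources used here.

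Intensities were transformed to log2 and quantile normalized over the arrays of a fit, and a probe was kept if 4 or more of these arrays gave it a detection p below 0.05 (R 4.3.3, limma 3.58.1; lmFit and eBayes, two-sided, Benjamini-Hochberg adjustment over all probes tested, called at an adjusted p under 0.05). Age comparisons and the difference of the genotype effect used 1 fit of 16 arrays, and genotype comparisons used 8 arrays of 1 age. Exact permutation tests used the same values. Probes were named from the table's gene numbers, accessions or symbols, 24823 of 25697 of them through the RefSeq gene table of GRCm38.p6. Lists of related genes and cell markers took the brightest probe per gene: other globins, heme synthesis, erythroid transcription factors, membrane and cytoskeleton, cytosol and maturation, erythropoietin and iron uptake, iron clearance, platelets, neutrophils, lymphocytes, endothelium, microglia, choroid plexus, meninges and hippocampal neurons. All members with a probe are named, as well as the 8 genes most like adult globin. Of the lists only some of the genes that were called are named, not always those of smallest p, and of some marker lists none. Other genes named are defining markers or were chosen after their values were seen. The members, lists and tests were chosen with earlier results of these data known. The fitting code was tested on simulated data. The labels do not say that samples of a group come from separate litters, so p-values set a difference against the spread between these samples only. A group mean rests on 4 arrays, and the array clusters, sex and signal near background also limit it.

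Alternatives were normexp background correction (offset 16), cyclic loess or a common median in place of quantiles, a stricter filter (detection p below 0.01) or none, trended and robust variances, array clusters, sex or the replicate number as a covariate, other sets of arrays and leaving out each array in turn.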

Additional observations from a re-analysis of the deposited data

Results flagged for a closer look

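In the groups of 4 arrays, 2 of 20 values of tested members had one array farther from the others than Dixon's critical value at the 95% level allows, where chance alone gives about 1. *Ahsp* on WT P1 replicate 1 was at 9.46 against 7.68 on the nearest array of its group, a gap of 0.944 of the group's range. *Alas2* on *Mef2c*-het P1 replicate 1 was at 8.20 against 7.83 on the nearest array, a gap of 0.883 of the range. Without WT P1 replicate 1 the age change of *Ahsp* was -0.39 in WT, and without *Mef2c*-het P1 replicate 1 that of *Alas2* was 0.08 in *Mef2c*-het (limma adjusted p = 0.491).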

How the results depend on the processing

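Over all alternatives, 666 of 691 values of single members kept their sign and 25 changed it, and all 135 values of the WT age change kept it. The 3 members called in the WT age comparison became 1 with cyclic loess or no filter on dim probes, 0 with sex or the replicate block, and 1 to 4 when single arrays were left out (1 without WT P30 replicate 2 or 6). The *Mef2c*-het age comparison, with 0 called, gave 1 after normexp and in the 8 arrays alone, and 0 to 1 when single arrays were left out (1 without WT P1 replicate 1, *Mef2c*-het P1 replicate 4 or *Mef2c*-het P30 replicate 5). Over both genotypes the 2 calls became 1 with cyclic loess, sex or without the arrays of the smaller clusters, and 0 with the replicate block. The genotype comparisons and the difference between ages gave 0 throughout. Of the correlations, 1 passed with scaling to a common median (*Hba-a1* and *Alas2* at P1, r = 0.83, exact permutation adjusted p = 0.0388) and 1 without normalization (r = 0.90, exact permutation adjusted p = 0.00625), where the same relation at P30 had r = 0.31 in place of 0.74. The cause of these changes was not tested.

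The values that changed sign were none of them called. In the *Mef2c*-het age change, *Alas2* was 0.033 with sex, 0.012 with the replicate block and -0.068 to 0.077 with single arrays left out, *Hbb-b1* was -0.066 with the block and -0.14 to 0.35 with single arrays left out, and *Slc4a1* was 0.24 with the block. Over both genotypes *Hbb-b1* was 0.31 with sex. Between genotypes at P1, *Hba-a1* was 0.0026 with a common median, 0.023 without the smaller clusters and -0.098 to 0.089 with single arrays left out, *Hbb-b1* was 0.024 with sex or the block, and *Ahsp* and *Slc4a1* were -0.49 to 0.15 and -0.48 to 0.050 with single arrays left out. At P30 *Hba-a1* was -0.081 with the block and -0.024 to 0.20 with single arrays left out. In the difference between ages *Hba-a1* was -0.054 with the block and -0.023 to 0.21 with single arrays left out, and *Ahsp* was -0.12 to 0.51.

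WT and *Mef2c*-het samples share replicate numbers 1, 4 and 8 at P1 and 3, 6 and 7 at P30. Deviations of same-numbered samples correlated at 0.09 to 0.82 at P1, where 5 of 6 arrays correlated best with their own number, and at -0.52 to 0.70 at P30, where 1 of 6 did, so the samples share a number and are not taken as pairs. With the replicate block the WT age change was -0.18 for *Hba-a1*, -0.11 for *Alas2* and -0.63 for *Ahsp* (limma adjusted p = 0.485, 0.468 and 0.191), none called. Signal near background limits *Slc4a1* and *Ahsp* at P30.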
